A study of Homo sapiens with 24 samples.

Results

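The mitochondrial ribosomal protein genes are the nuclear genes for the protein subunits of the mitochondrial ribosome. They were taken as every gene whose symbol is MRPL or MRPS followed by a number, with or without a letter A to C. The rule found 78 gene identifiers among 36481, of which 48 carried MRPL symbols and 30 carried MRPS symbols. MRPS17 was listed under 2 identifiers, one of which is a readthrough gene with a value in only 2 libraries, so 77 genes could be tested and 74 had a value in all 24 libraries.

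RNA was sequenced from 2 human triple-negative breast cancer cell lines, Hs578T and SKBR7, after 6 h of treatment. In each line 4 groups of 3 libraries were made, namely 0.1% DMSO as vehicle, 3.16 µM lapatinib, 1 µM PHA-767491, and co-treatment with both inhibitors at these concentrations. Lapatinib inhibits the receptor tyrosine kinases EGFR and HER2, and PHA-767491 inhibits cdc7, a kinase of replication origin firing, and CDK9, a kinase of transcriptional elongation. The study asked what the addition of the cdc7/CDK9 inhibitor does to cells that do not respond to EGFR inhibition. Both are established cell lines, and the replicates are treatments in triplicate that nothing says came from separate cultures, so a p-value measures only the spread between these libraries.

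The mitochondrial ribosome translates the few mRNAs encoded in mitochondrial DNA, all of which specify subunits of the respiratory chain and ATP synthase. It has a small subunit, which decodes the mRNA, and a large subunit, which joins amino acids and feeds the chain into the inner membrane. Its rRNAs are made in the mitochondrion, whereas every protein is encoded in the nucleus, translated in the cytosol and imported. Its assembly thus draws on many scattered nuclear genes, and the members lay on 21 different chromosomes.

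The values were log2 expression levels that the authors had normalised and quantile normalised, so they express rank within a library and hold no read depth. The number of genes listed per library ran from 9967 to 23320, and 6 libraries stood apart. In Hs578T, 9967 genes were listed in replicate I of DMSO, 17137 in replicate II of DMSO and 18090 in replicate I of PHA-767491. In SKBR7, 18021 were listed in replicate II of lapatinib and 16232 in replicate I of co-treatment. Within Hs578T, replicate II of DMSO and replicate III of PHA-767491 held the epithelial keratin KRT8 at 9.47 and 9.71 on the log2 scale, and the cell adhesion gene CDH1 at 3.66 and 4.53. KRT8 lay between 10.8 and 11.9 in every SKBR7 library and did not exceed 5.08 in the other 10 Hs578T libraries. Another epithelial keratin, KRT18, ran from 5.47 to 9.31 in Hs578T and from 10.1 to 10.9 in SKBR7. The epithelial gene EPCAM, listed in 9 libraries of each line, did not separate the lines. Its medians were −2.11 in Hs578T and −1.89 in SKBR7, and its highest values 2.45 and −0.109. The mesenchymal genes VIM, FN1 and CDH2 were higher in every Hs578T library than in any SKBR7 library. Among receptor genes whose expression defines triple-negative cells by its absence, PGR was listed in 3 Hs578T libraries and 1 SKBR7 library and ESR1 was at or below 0.83. For ERBB2 the paper's definition concerns amplification, which was not measured here. It was listed in all 24, with medians of 5.64 in Hs578T and 6.16 in SKBR7. The 6 libraries of Hs578T co-treatment and Hs578T lapatinib did not stand apart, and this comparison was therefore fitted on them alone.

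The median level of the 74 members listed everywhere showed how far these libraries moved the whole group. In Hs578T it was 4.50, 5.07 and 5.71 in the DMSO libraries, 5.88, 5.44 and 5.82 under lapatinib, 4.51, 5.85 and 5.97 under PHA-767491, and 5.93, 6.10 and 5.84 under co-treatment. In SKBR7 it was 6.15, 5.96 and 6.07 in DMSO, 5.79, 5.43 and 6.12 under lapatinib, 6.00, 5.98 and 6.00 under PHA-767491, and 5.40, 5.93 and 6.06 under co-treatment. The lowest medians were in libraries that listed few genes. Outside the 6 libraries the median ran from 5.44 to 6.10 in Hs578T and from 5.79 to 6.15 in SKBR7. Such normalised bulk values show neither the number of cells nor the amount of RNA per cell.

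**Figure D1:**
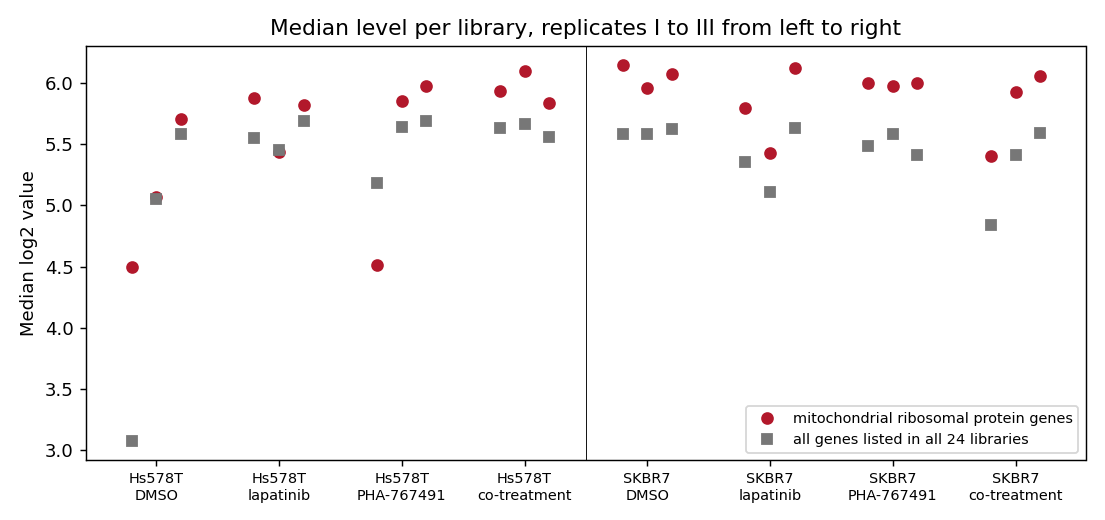
Median log2 level in each library of the 74 mitochondrial ribosomal protein genes listed in all 24 libraries (red circles) and of all 8917 genes so listed (grey squares). The x axis gives the group and the 3 points of a group are replicates I to III. Hs578T PHA-767491 replicate I lies at 4.51 for the members and 5.18 for all genes, and Hs578T DMSO replicate I at 4.50 and 3.08.

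Adding PHA-767491 to lapatinib in Hs578T changed individual mitochondrial ribosomal protein genes in both directions, while the median shift of the group lay close to that of all genes. Of 77 members, 27 were higher under co-treatment than under lapatinib and 4 were lower (limma, adjusted p under 0.05). Over all 22846 genes tested, 17.3% were higher and 10.5% were lower. The members' median difference was 0.20 on the log2 scale and that of all genes was 0.18. The members are well expressed genes, and among the 8917 genes listed in all 24 libraries 30.7% were higher, 20.8% were lower and the median difference was 0.11. Of the 74 members so listed, 36.5% were higher and 4.05% were lower, and the differences between these shares were not tested. The interquartile range was 0.48 on the log2 scale among members so listed and 0.77 among all genes so listed.

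These counts depended on the scale and on the spread used. With each library centred on its own median, 12 members were higher and 9 lower, beside 11.6% and 13.1% of all genes. No member and 0% of all genes passed when all 12 Hs578T libraries shared the spread, and 1 member and 5.03% of all genes passed without a variance trend. Leaving out co-treatment replicate I left 18 members higher and 2 lower, beside 11.9% and 8.54% of all genes. Leaving out co-treatment replicate II left 14 and 6, beside 12.1% and 9.28%. Leaving out lapatinib replicate II gave 18 and 9, beside 14.5% and 12.3%, with median differences of 0.10 for members and 0.07 for all genes. Of the 27 members that were higher, 13 passed in every refit without 1 of the 6 libraries, and of the 4 that were lower, 2 did, namely MRPL15 and MRPL16.

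Genes rose under both kinds of symbol, which do not fully match the place of the protein. Among 48 MRPL genes 19 rose and 4 fell, with a median difference of 0.22, and among 29 MRPS genes 8 rose and none fell, with a median of 0.20. The 8 MRPS genes were MRPS11, MRPS15, MRPS18C, MRPS21, MRPS27, MRPS28, MRPS33 and MRPS36. In 33 members all 3 co-treated libraries lay above all 3 lapatinib libraries, and in 7 all lay below, beside 29.7% and 18.2% of the 16561 genes listed in all 6 libraries.

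**Figure D2:**
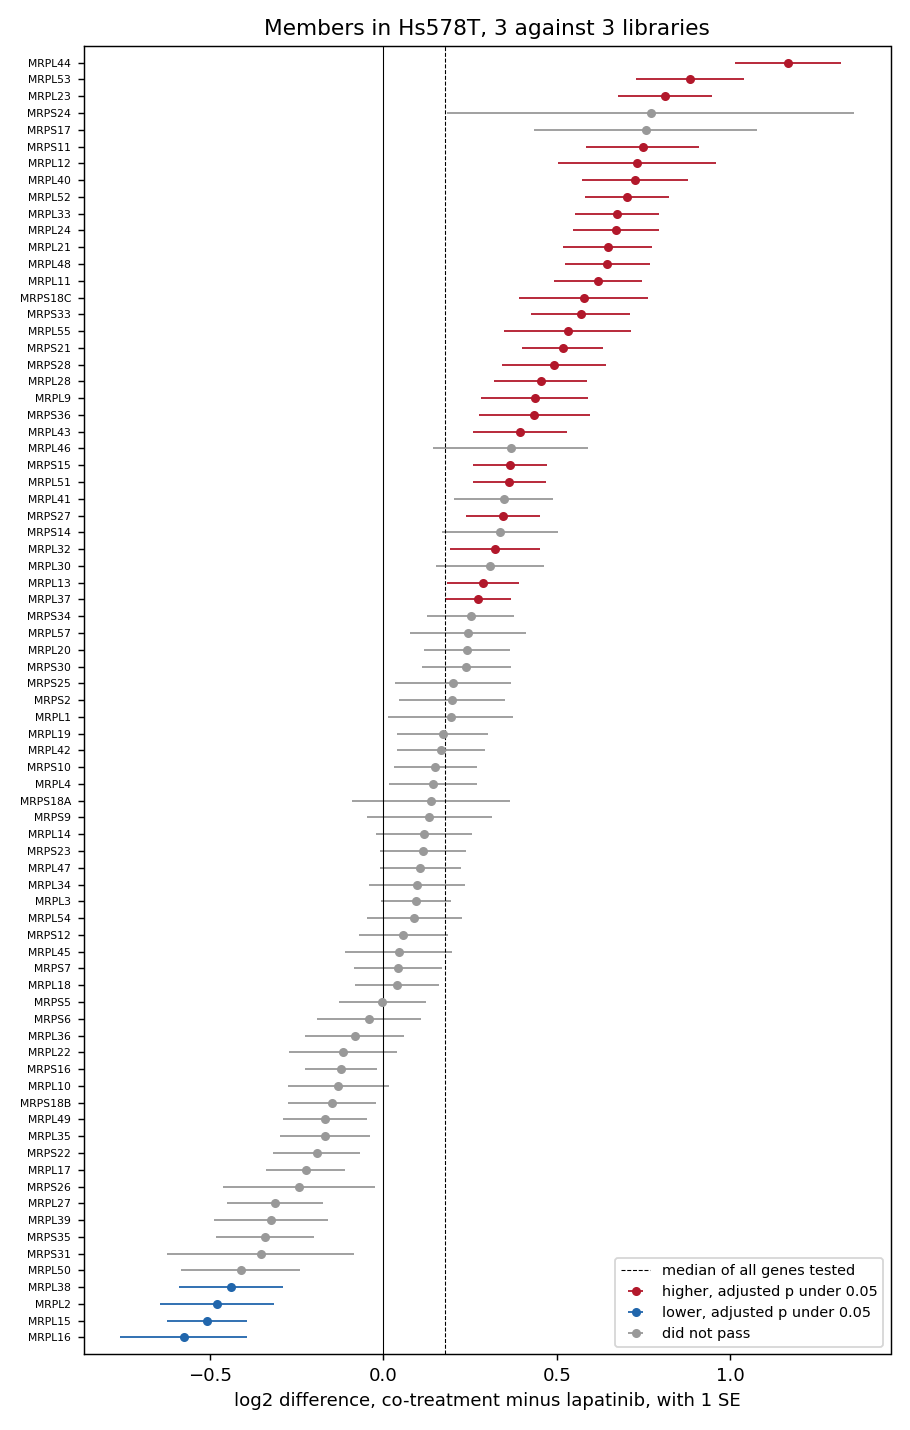
Log2 difference between co-treatment and lapatinib in Hs578T for each of the 77 members tested, ordered by size, with 1 SE. Red marks the 27 members that were higher and blue the 4 that were lower (limma, adjusted p under 0.05), and the dashed line is the median of all genes tested, 0.18.

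The largest rise was that of MRPL44, a large subunit protein with an RNase III fold. Its values were 5.93, 6.07 and 5.74 under co-treatment and 4.93, 4.43 and 4.87 under lapatinib. The groups did not overlap, and the difference of 1.17 (SE 0.15, limma adjusted p = 1.34e-12) was the only one among members that passed without a variance trend. The single Hs578T libraries outside doubt in the other groups held it at 4.81 in DMSO and 5.31 under PHA-767491, both below every co-treated library.

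MRPL53, a protein of the stalk that recruits translation factors, was listed at 5.67, 5.89 and 5.56 under co-treatment and at 4.93, 4.64 and 4.89 under lapatinib. It rose by 0.88 (SE 0.16, limma adjusted p = 2.48e-07) with no overlap. In the annotation 72.8% of its exon bases are shared with CCDC142 on the same strand, so its value may include reads that could belong to that gene. MRPL23, a conserved protein at the mouth of the exit tunnel, stood at 6.10, 6.48 and 6.08 under co-treatment and at 5.62, 5.19 and 5.42 under lapatinib. It rose by 0.81 (SE 0.14, limma adjusted p = 5.67e-08), again without overlap.

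The 4 genes that fell all encode large subunit proteins. MRPL16, whose bacterial counterpart helps position the acceptor tRNA, was at 4.42, 4.37 and 4.33 under co-treatment and at 5.01, 4.79 and 5.04 under lapatinib. It fell by 0.58 (SE 0.18, limma adjusted p = 0.00826), and the co-treated libraries lay close together below the others. MRPL15 stood at 6.24, 6.57 and 6.39 against 7.02, 6.80 and 6.91 and fell by 0.51 (SE 0.12, limma adjusted p = 9.39e-05). MRPL2, a protein next to the peptidyl transferase centre, was at 4.79, 5.07 and 4.57 against 5.49, 5.07 and 5.30 and fell by 0.48 (SE 0.16, limma adjusted p = 0.0154). Its highest co-treated library lay just under the lowest lapatinib library, and its call was lost when co-treatment replicate I or III, or lapatinib replicate I or III, was left out (adjusted p from 0.0528 to 0.159). The last, MRPL38 of the central protuberance, fell by 0.44 (SE 0.15, limma adjusted p = 0.0144). Its call was lost without co-treatment replicate I or III or lapatinib replicate I (adjusted p from 0.0902 to 0.131). In the annotation MRPL38 shares 41.1% of its exon bases with another gene on the same strand and MRPL2 shares 29.2%, while MRPL15 and MRPL16 share none.

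Grouped by place in the ribosome, a grouping made after the values were seen, some neighbouring proteins gave unlike values. The proteins named here are a selection, and the differences between their changes were not tested. Of the stalk proteins, MRPL53, MRPL12 and MRPL11 rose, MRPL11 by 0.62 (adjusted p = 1.33e-05), while MRPL10 differed by −0.13. At the exit tunnel MRPL23 and MRPL24 rose, MRPL24 by 0.67 (adjusted p = 8.91e-07), and MRPL22 differed by −0.12 and the membrane anchor MRPL45 by 0.04. In the central protuberance MRPL40 rose by 0.73 and MRPL48 by 0.65 where MRPL38 fell, and MRPL18 differed by 0.04. In the small subunit MRPS11, a protein of the platform, rose by 0.75 (adjusted p = 4.68e-05), and MRPS12, a protein of the decoding centre, differed by 0.06.

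For MRPL12, 1 library carried most of the difference. This protein, which forms the flexible arm of the stalk and also binds the mitochondrial RNA polymerase, was at 4.09, 4.63 and 4.31 under co-treatment and at 3.97, 2.73 and 4.14 under lapatinib. The difference of 0.73 (SE 0.23, limma adjusted p = 0.00680) passed although the groups overlapped. Without the low lapatinib replicate II it was 0.29 (adjusted p = 0.332), and the call was also lost without co-treatment replicate II (adjusted p = 0.144). In the annotation 69.5% of its exon bases lie in another gene on the same strand.

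The paralogues MRPS18A, MRPS18B and MRPS18C descend from one bacterial protein and occupy different sites, MRPS18A in the large subunit despite its name. MRPS18C, the one at the bacterial site, was at 4.75, 4.99 and 4.92 under co-treatment and at 4.62, 3.97 and 4.35 under lapatinib, and rose by 0.58 (SE 0.19, limma adjusted p = 0.00954). Its call was lost without co-treatment replicate II or III or lapatinib replicate II (adjusted p from 0.0502 to 0.0920). MRPS18A was at 3.82, 4.39 and 3.98 against 3.75, 3.80 and 4.24, and MRPS18B was at 6.08, 6.12 and 6.01 against 6.34, 6.09 and 6.23. Neither passed (differences 0.14 and −0.15, adjusted p = 0.721 and 0.436), and their groups overlapped. The differences between the paralogues' changes were not tested.

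MRPS36 was named as a small subunit protein and is now known as a subunit of the 2-oxoglutarate dehydrogenase complex. It was at 5.24, 5.44 and 5.38 under co-treatment and at 5.04, 4.67 and 5.05 under lapatinib, and rose by 0.44 (SE 0.16, limma adjusted p = 0.0270), a call lost in 4 of the 6 refits without 1 library.

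**Figure D3:**
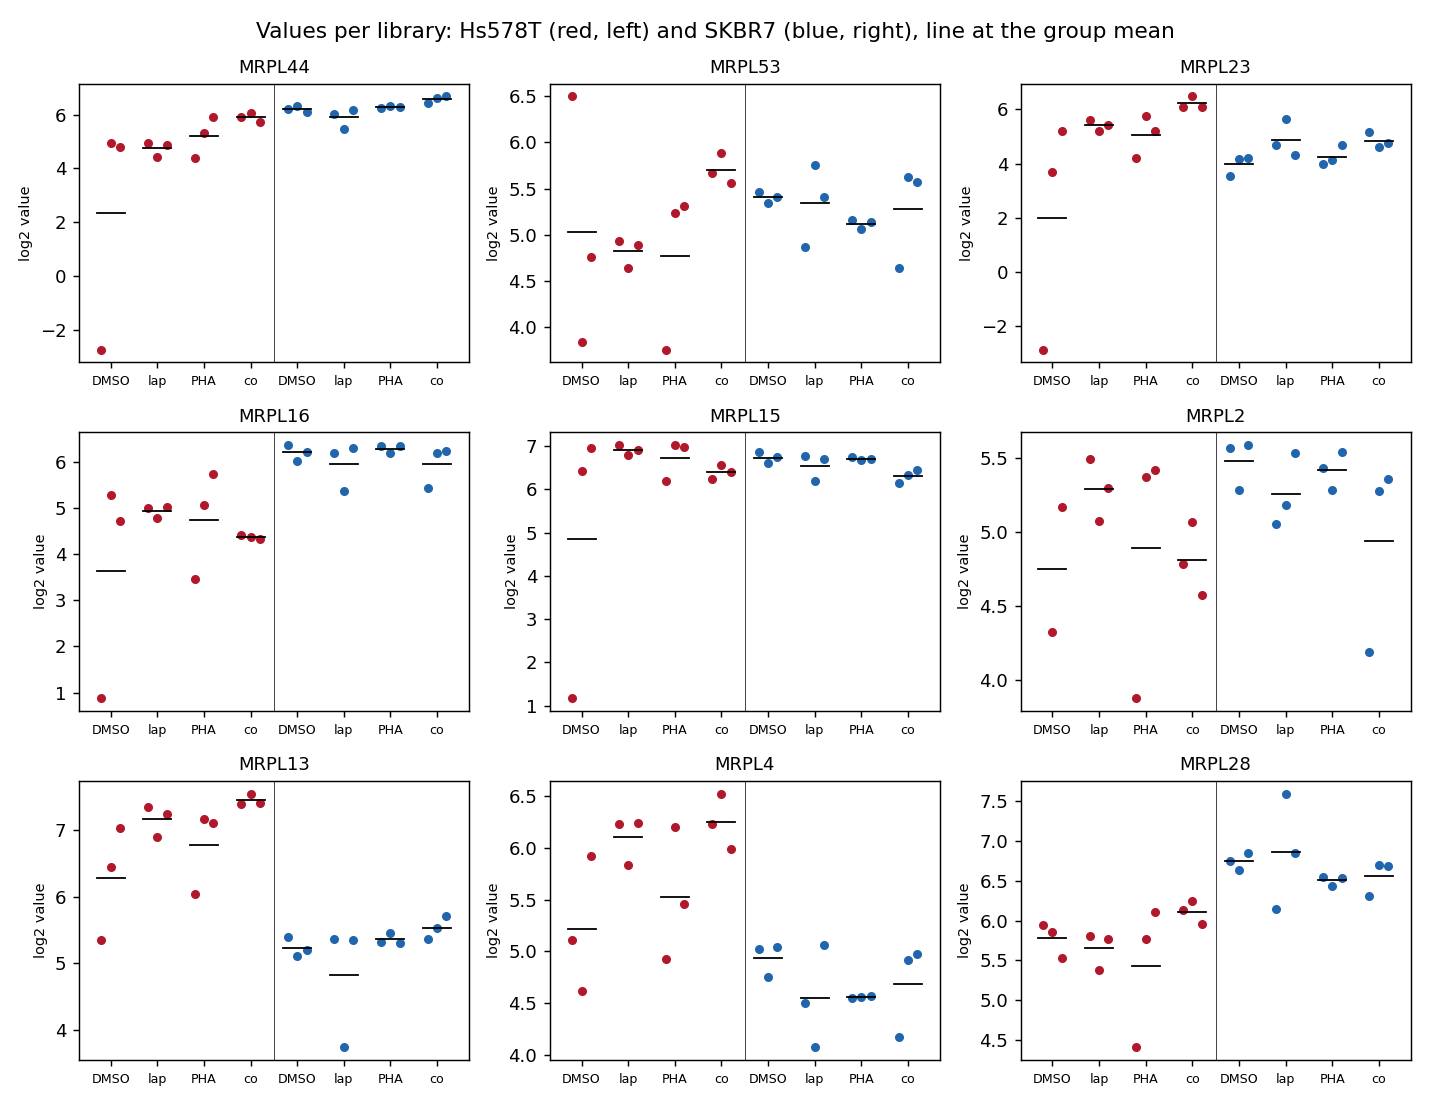
Log2 value in every library of 9 members named for co-treatment against lapatinib in Hs578T or for the difference between lines. Hs578T is red and SKBR7 blue, the groups on each x axis are DMSO, lapatinib (lap), PHA-767491 (PHA) and co-treatment (co), the points are replicates I to III and the line is the group mean. The DMSO mean of MRPL44 in Hs578T is set by replicate I at −2.74.

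The promoters of these genes differ in the short motifs they hold. Nuclear genes for mitochondrial proteins are commonly described as targets of the ETS factor GABPA and of NRF1. RefSeq promoters were at hand for 68 members, and 5 motifs were searched on both strands in the 250 bases before the RefSeq start. The ETS motif CCGGAAG was found in 32.4% of the 68 member promoters and in 11.8% of 15843 protein-coding promoters. The NRF1 motif GCGCATG was found in 10.3% against 5.04%, and the YY1 motif AAGATGG in 10.3% against 3.35%. The CRE motif TGACGTC was found in 1.47% against 4.18%, and the SP1 motif GGGGCGG in 39.7% against 40.0%. In the last 100 bases alone the ETS share was 26.5% against 8.08%. A match is a run of letters and not a binding site, and some of these bases are transcribed in other annotations.

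For the member that rose most, the one that fell most and the MRPS18 paralogues, up to 120 bases are shown that lie upstream of the gene and outside every annotated exon. The sequences are from RefSeq and are given 5′ to 3′ on the gene's strand in GRCh38.p14, with capitals at any of the 5 motifs or their reverse complements.
MRPL44 (chr2:223957284-223957403, + strand): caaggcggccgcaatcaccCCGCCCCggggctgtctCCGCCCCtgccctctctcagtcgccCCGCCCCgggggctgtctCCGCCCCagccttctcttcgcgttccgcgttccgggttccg
MRPL16 (chr11:59810873-59810992, − strand): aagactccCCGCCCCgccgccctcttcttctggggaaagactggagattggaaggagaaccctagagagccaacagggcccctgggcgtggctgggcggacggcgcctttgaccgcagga
MRPS18A (chr6:43687792-43687911, − strand): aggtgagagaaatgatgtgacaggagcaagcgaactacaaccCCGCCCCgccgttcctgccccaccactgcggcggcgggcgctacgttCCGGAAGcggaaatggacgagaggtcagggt
MRPS18B (chr6:30617590-30617708, + strand): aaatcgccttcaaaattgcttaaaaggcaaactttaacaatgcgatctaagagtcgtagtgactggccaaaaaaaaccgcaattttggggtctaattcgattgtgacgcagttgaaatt
MRPS18C (chr4:83455856-83455931, + strand): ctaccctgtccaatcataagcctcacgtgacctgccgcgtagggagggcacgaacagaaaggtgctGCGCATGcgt
The reverse complement of the SP1 motif recurs in the stretch of MRPL44, which rose, and is present in that of MRPL16, which fell. The MRPS18A stretch holds an ETS and an SP1 motif, that of MRPS18C an NRF1 motif, and that of MRPS18B none of the 5. Over the whole 250 bases MRPS18B also has an NRF1 motif and MRPS18C an ETS motif.

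Many of these genes share their upstream region with another gene, a layout examined after the values were seen. A protein-coding gene on the opposite strand started within 1000 bases upstream of 17 of the 77 members (22.1%), whereas 8.54% of 20046 protein-coding genes have such a neighbour. The 17 members formed 16 pairs, of which 15 could be tested in Hs578T. In 1 pair both genes rose, in 3 pairs the member alone passed, in 7 the partner alone, and in 4 neither. Over all genes tested 17.3% were higher and 10.5% lower, and among genes listed in all 24 libraries 30.7% and 20.8%. Whether genes in such pairs differ from genes paired at random was not tested. MRPL21 and IGHMBP2, whose starts lie 28 bases apart, rose by 0.65 and 0.48. MRPL47 and NDUFB5, 41 bases apart, differed by 0.11 and 0.48, and MRPL36 and NDUFS6, also 41 bases apart, by −0.08 and 0.63, where only the complex I genes passed. MRPL49 and the cytosolic ribosomal protein gene FAU, 6 bases apart, differed by −0.17 and 0.42, and again FAU alone passed (adjusted p = 1.78e-05). MRPL27 and EME1 lie 13 bases apart, and EME1 alone passed, falling by 0.81. MRPS11 and MRPL46, 63 bases apart, are both members, and MRPS11 rose where MRPL46 differed by 0.37 (adjusted p = 0.235).

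The members have short mRNAs, with a median of 1260 bases against 2259 for all genes tested. Across the 77 members the difference in Hs578T was weakly related to log2 mRNA length (Pearson r = −0.19, Spearman rho = −0.23), and across all 22485 genes with a length r was −0.15. Genes are not independent replicates and share the 6 libraries. Among 1259 genes listed in all libraries with mRNAs of 957 to 1786 bases, a comparison added after the values were seen, 46.5% were higher and 8.82% lower with a median difference of 0.32. Of the 37 members in that range, 35.1% were higher and 8.11% lower with a median of 0.14. The share of members that rose was thus below that of genes of like length, a difference that was not tested.

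Other mitochondrial genes were counted in the same fit. All 13 mitochondrially encoded mRNAs rose in Hs578T, by 0.35 to 0.83, with MT-ND6, MT-ATP8 and MT-ND4L rising most, and so did both mitochondrial rRNAs, MT-RNR2 by 0.75 and MT-RNR1 by 0.42. Of 98 nuclear respiratory chain genes tested, 62 rose and none fell, with a median of 0.53. That list holds pseudogenes of ATP synthase genes by its naming rule, and 62 of 77 were higher when these were left out. UQCRHL, ATP5I, an ATP synthase subunit, and COX7A1, a cytochrome c oxidase subunit, rose most among those that passed, by 1.25, 1.15 and 1.10. Of 89 cytosolic ribosomal protein genes 56 rose and 1 fell, with a median of 0.26. The list follows symbols and so includes RPL12L3, RPL41 (1 of its 2 identifiers) and RPS10, which rose by 1.71, 1.51 and 1.37, and RPL7L1, the gene that fell. The respiratory chain genes therefore rose in a larger share than the members did, and no test of this difference was made. Over all genes tested 17.3% were higher and 10.5% lower. Among genes listed in all libraries with mRNAs of 957 to 1786 bases, 46.5% were higher and 8.82% lower.

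Genes that build or serve the mitochondrial ribosome were counted too, and the shares of the longer lists may be read against the 30.7% higher and 20.8% lower among genes listed in all libraries. Of 24 assembly and rRNA modification genes 7 rose and 4 fell (29.2% and 16.7%). RNMTL1, an rRNA methyltransferase also called MRM3, rose by 1.78, YBEY, an RNA processing enzyme, by 1.31 and NGRN by 0.90, while RPUSD4, FASTKD2 and NSUN4 fell by 0.80, 0.74 and 0.69. Of 16 translation factors 8 rose and 2 fell, among them the release factors MTRF1L and MTRF1, up by 0.94 and 0.80, the recycling factor MRRF, up by 0.77, and the membrane insertase OXA1L, which fell by 0.63. Of 20 mitochondrial aminoacyl-tRNA synthetase genes 4 rose and 3 fell, with PARS2 up by 1.08 and TARS2 down by 1.07. Of 6 mitoribosomal subunits with other names, CHCHD1 and GADD45GIP1 rose, by 0.53 and 0.30. Of 9 genes of mitochondrial transcription and DNA maintenance C10orf2 (the helicase Twinkle), SSBP1 and TFAM rose, by 1.28, 0.52 and 0.47. Of 9 factors of nuclear mitochondrial genes PPRC1, MYC and YY1 rose, by 0.71, 0.57 and 0.53.

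**Figure D4:**
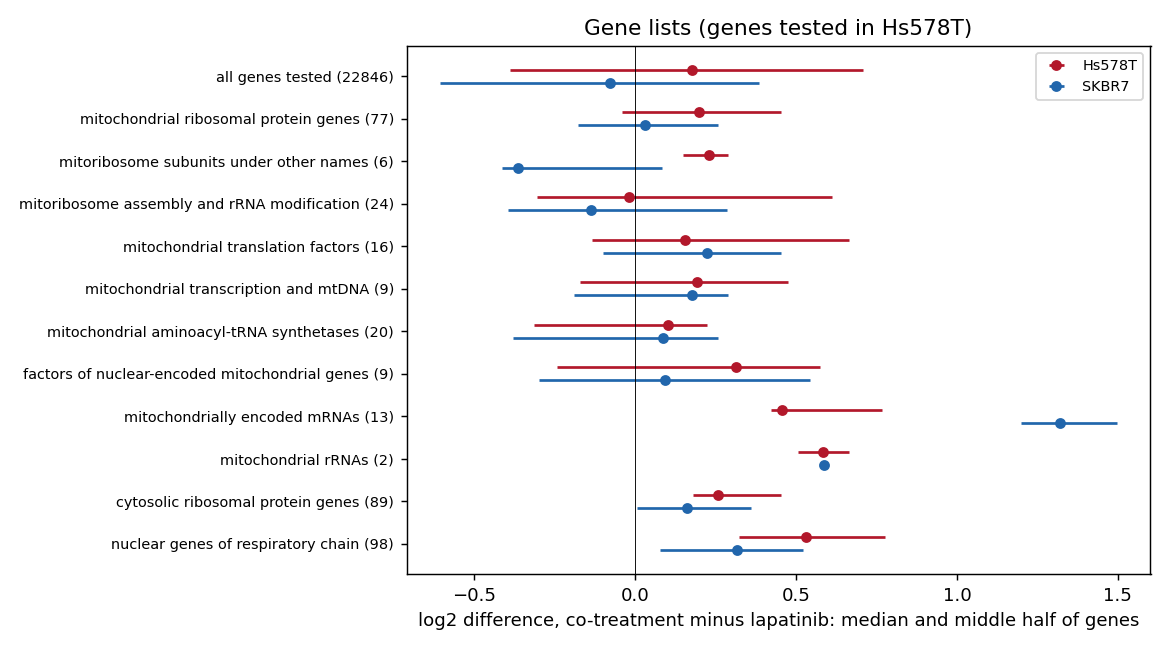
Median log2 difference between co-treatment and lapatinib for each list of genes, with the bar spanning its interquartile range, in Hs578T (red) and SKBR7 (blue). The number after a name is the number of genes tested in Hs578T. The members' medians are 0.20 and 0.03 where those of all genes are 0.18 and −0.08, the SKBR7 median of the members runs from −0.16 to 0.28 when 1 library is left out, and the mitochondrially encoded mRNAs lie at 0.46 and 1.32.

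In SKBR7 no member passed in the same comparison, where 0.734% of 21932 genes did (limma). At an unadjusted p under 0.05 there were 6 members, beside 11.5% of all genes, and the median difference was 0.03 beside −0.08 for all genes. The sign of that median depended on single libraries, since it was −0.16 (all genes −0.29) without lapatinib replicate II and 0.28 (all genes 0.23) without co-treatment replicate I. In 2 members all co-treated libraries lay above lapatinib and in 1 all lay below, beside 3.33% and 6.63% of all genes. The largest differences were those of MRPS36 and MRPS17. MRPS36 was at 4.47, 4.85 and 4.86 under co-treatment and at 4.43, 0.94 and 4.86 under lapatinib, and MRPS17 was at 3.46, 3.41 and 4.27 against 2.25, 1.58 and 3.62. Their differences of 1.31 and 1.23 did not pass (adjusted p = 0.464 and 0.388), and were 0.08 and 0.78 without lapatinib replicate II. MRPS26 at −0.95 and MRPL27 at −0.84 did not pass either (adjusted p = 0.228 and 0.235), though MRPL27 was lower in every co-treated library, at 4.53, 5.51 and 5.53 against 5.79, 6.37 and 5.93. MRPS26 was −0.63 without lapatinib replicate II, and MRPL27 was −0.51 without co-treatment replicate I. The mitochondrially encoded mRNAs, at a median of 1.32, did not pass, and C10orf2 rose by 1.19 (adjusted p = 0.0128).

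The change from lapatinib to co-treatment ran partly the same way in both lines. Over 77 members Pearson's r between the lines was 0.36 and Spearman's rho 0.33, a description only, since the members share the libraries of each line. Neither these correlations nor the counts of shared direction below were computed over all genes. Whether the members differ from other genes in this was not tested. The difference was above 0 in both lines for 33 members, below 0 in both for 14, above 0 in Hs578T alone for 23 and in SKBR7 alone for 7. Of the 27 members higher in Hs578T, 19 were above 0 in SKBR7, and all 4 lower members were below 0 there. For MRPL16 this was only slight. Its SKBR7 values overlapped, at 5.439, 6.205 and 6.235 under co-treatment against 6.204, 5.378 and 6.320 under lapatinib. A direct test of the difference between the lines, over all 24 libraries as deposited, called no member and 0% of 19168 genes. No member was below an unadjusted p of 0.05 there, where 1.90% of all genes were. The ends of that difference, Hs578T minus SKBR7, were MRPL53 at 0.95 and MRPL41 at 0.93, and MRPS36 at −0.88 and MRPL39 at −0.77. Without SKBR7 lapatinib replicate II MRPL41 was 0.38, MRPS36 0.36 and MRPL39 0.03, and without SKBR7 co-treatment replicate I MRPL53 was 0.63.

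**Figure D5:**
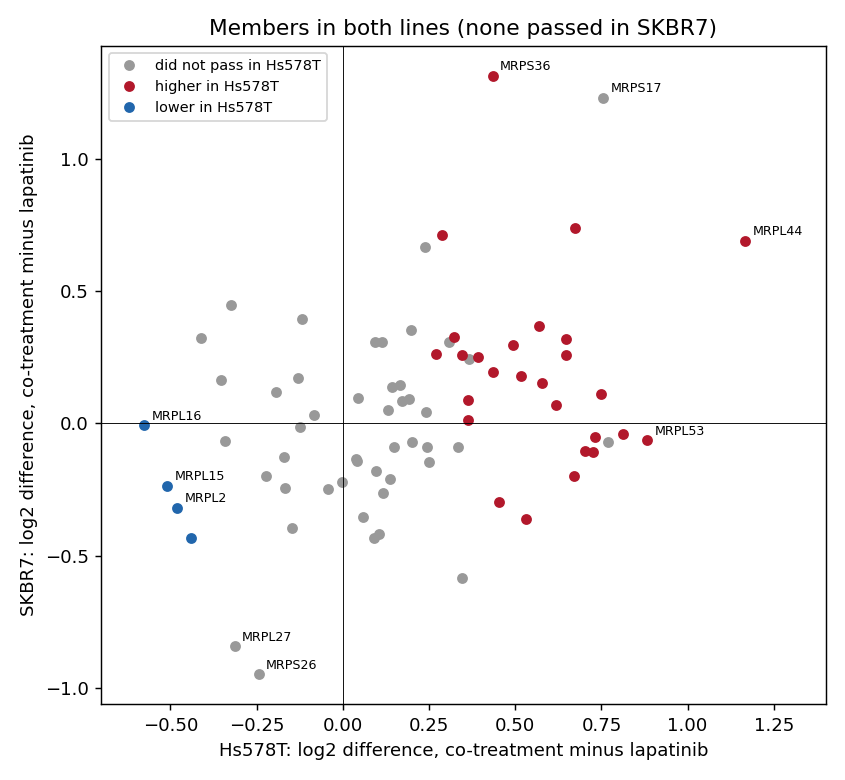
Log2 difference between co-treatment and lapatinib in Hs578T (x axis) and in SKBR7 (y axis) for the 77 members. Colour gives the call in Hs578T, 27 higher in red and 4 lower in blue, and no member passed in SKBR7. MRPL44 lies at 1.17 and 0.69, and all 4 blue points lie below 0 on both axes, MRPL16 only slightly so on the y axis.

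With the 6 libraries in doubt left out and the rest quantile normalised again, more members and a larger share of genes passed. Only genes listed in every library of a line, Hs578T DMSO replicate I aside, were kept. The Hs578T comparison held no library in doubt, so only its genes and normalisation changed. There 28 of 77 members were higher and 13 lower, beside 30.6% and 26.8% of 13875 genes. Its counts with values as deposited were 27 and 4. In SKBR7 9 of 76 were higher and 8 lower, beside 16.4% and 18.6% of 14170 genes. MRPL21, MRPL33, MRPL37, MRPL44, MRPL53 and MRPS17 were higher in both lines, and MRPL15, MRPL27, MRPL49, MRPL50 and MRPS31 were lower in both, while none passed in opposite directions. How many of all genes passed in both lines was not counted, so this sharing cannot be set against that of other genes. In a fit of this kind over both lines, some members and other genes did pass the direct test of the line difference. Those counts are given with the processing below. MRPL44 rose by 1.09 in Hs578T and by 0.55 in SKBR7 (limma adjusted p = 3.82e-06 and 7.44e-04). Its SKBR7 values as deposited were 6.45, 6.64 and 6.68 under co-treatment, 6.04, 5.48 and 6.18 under lapatinib, 6.21, 6.32 and 6.10 in DMSO and 6.26, 6.32 and 6.30 under PHA-767491. Every co-treated library lay above the 9 others, replicates I of co-treatment and II of lapatinib included.

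MRPL33, a small conserved subunit, behaved alike in this fit, higher by 0.62 in Hs578T and by 0.48 in SKBR7 (limma adjusted p = 2.76e-04 and 0.00307). As deposited it was at 6.64, 6.85 and 6.72 against 6.28, 5.74 and 6.17 in Hs578T, and at 6.51, 6.88 and 6.78 against 6.29, 5.26 and 6.41 in SKBR7. Co-treated libraries lay above those of lapatinib in both lines. MRPL15 ran the other way, lower by 0.56 and by 0.33 (limma adjusted p = 2.30e-04 and 0.0296), with SKBR7 values as deposited of 6.14, 6.34 and 6.46 against 6.77, 6.19 and 6.69, which overlapped through lapatinib replicate II.

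Against PHA-767491 alone no member passed in either line, where 0% of genes passed in Hs578T and 0.431% in SKBR7. The members' median difference was 0.51 in Hs578T, where all genes had 0.21, and −0.13 in SKBR7, where all genes had −0.28. Without PHA-767491 replicate I the Hs578T medians of members and of all genes were −0.03 and −0.01, and without its replicate III they were 0.81 and 0.36. Those of SKBR7 were 0.06 and 0.05 without co-treatment replicate I, and −0.25 and −0.57 without co-treatment replicate III. In Hs578T MRPS24 and MRPL40 were highest at 1.91 and 1.26, and MRPL16 and MRPL15 lowest at −0.38 and −0.34. PHA-767491 replicate I, whose members lay low as a group, entered these means. MRPS24 was the lowest in level of the 77 members tested. Its values ran from −2.583 to 1.938 in Hs578T and from −2.345 to 0.56 in SKBR7. MRPL40 was at 5.59, 5.86 and 5.72 under co-treatment and at 3.14, 5.11 and 5.16 under PHA-767491, without overlap, where 24.2% of all genes lay wholly above. Without PHA-767491 replicate I, MRPS24 was 1.07, MRPL40 0.59, MRPL16 −1.03 and MRPL15 −0.60. In SKBR7 MRPL23 and MRPS24 were highest at 0.59 and 0.48, and MRPS31 and MRPL36 lowest at −0.82 and −0.75. MRPL36 was at 3.76, 4.82 and 4.99 under co-treatment and at 5.27, 5.31 and 5.26 under PHA-767491, without overlap, where 18.2% of all genes lay wholly below. Without co-treatment replicate I, MRPS31 was −0.25, MRPL36 −0.37 and MRPS24 1.27. At an unadjusted p under 0.05 there was 1 member in each line, beside 5.36% and 10.4% of all genes.

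Against DMSO no member passed in any of the 6 comparisons. The share of all genes called was 0% in the 3 Hs578T comparisons, 1.51% for SKBR7 co-treatment, and 0% for either inhibitor alone in SKBR7. The members' median in Hs578T was 0.76 for co-treatment, 0.58 for lapatinib and 0.39 for PHA-767491, where all genes stood at 0.90, 0.76 and 0.69. In SKBR7 it was −0.25, −0.24 and −0.05, where all genes stood at −0.46, −0.38 and −0.18. At an unadjusted p under 0.05 there were 18, 3 and 1 members in Hs578T, beside 21.8%, 9.67% and 7.87% of all genes. In SKBR7 there were 4, 2 and 0, beside 17.0%, 2.30% and 2.09%. Single libraries moved these medians. Without Hs578T DMSO replicate I those of members were 0.44, 0.25 and 0.02, beside 0.51, 0.38 and 0.30 for all genes. At the other end those of members were 1.05 and 0.89 for co-treatment and lapatinib without DMSO replicate III, beside 1.66 and 1.55, and 0.76 for PHA-767491 without its replicate I, beside 1.00. In SKBR7 the co-treatment median of members was −0.05 without its replicate I and −0.38 without its replicate III, beside −0.14 and −0.76 for all genes. That of lapatinib was −0.06 without its replicate II and −0.41 without its replicate III, beside −0.16 and −0.65, and that of PHA-767491 was −0.09 without DMSO replicate II and −0.02 without DMSO replicate I, beside −0.19 and −0.20. Hs578T DMSO replicate III decided the count, since without it, with only the DMSO libraries in doubt left, 25, 15 and 4 members passed, beside 39.7%, 33.0% and 22.0% of all genes. Without DMSO replicate I there was 1 member for co-treatment, MRPL23, beside 2.45% of all genes.

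Among members listed in all libraries of a comparison, and with every library in the fit, MRPL23 had the highest difference from DMSO in each of these 6 comparisons. Its DMSO values were −2.87, 3.67 and 5.20 in Hs578T and 3.52, 4.16 and 4.22 in SKBR7. In Hs578T the differences were 4.22, 3.41 and 3.05, and 1.79, 0.97 and 0.62 without DMSO replicate I. In SKBR7, where no DMSO library stood apart, MRPL23 was at 5.18, 4.61 and 4.75 under co-treatment and at 4.69, 5.65 and 4.31 under lapatinib, all above DMSO, and at 3.97, 4.11 and 4.68 under PHA-767491. The differences of 0.88, 0.92 and 0.29 did not pass (limma adjusted p = 0.276, 0.729 and 1), and that of lapatinib was 0.53 without its replicate II. That of PHA-767491 was 0.06 without DMSO replicate I, 0.07 without PHA-767491 replicate III and 0.43 without PHA-767491 replicate I.

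Other members were named at the ends of these comparisons. In Hs578T MRPL44 came next under co-treatment at 3.58, MRPS28 under lapatinib at 3.08 and MRPL45 under PHA-767491 at 2.95, where DMSO replicate I held these genes at −2.74, −2.96 and −3.31. Without it the differences were 1.04, 0.55 and 0.14. The lowest were MRPS26 at −0.17 and MRPL22 at 0.03 under co-treatment, MRPS36 at −0.33 and MRPL52 at −0.27 under lapatinib, and MRPL41 at −0.90 and MRPL52 at −0.65 under PHA-767491. Without PHA-767491 replicate I these last were −0.09 and −0.08, and without DMSO replicate I −0.23 and 0.03. In SKBR7 co-treatment gave MRPL44 at 0.38, MRPS31 at −0.92 and MRPS26 at −0.87, and MRPS31 was −0.35 without co-treatment replicate I. MRPS26, a small subunit protein, was at 4.36, 5.10 and 5.17 there against 5.81, 5.65 and 5.77 in DMSO, without overlap (limma adjusted p = 0.187). All co-treated libraries likewise lay below DMSO in 22 of 77 members and in 33.1% of all genes so compared. Lapatinib gave MRPL27 at 0.24, MRPS36 at −1.50 and MRPS17 at −1.08, which were 0.07, −0.26 and −0.63 without lapatinib replicate II. PHA-767491 gave MRPS23 at 0.26, MRPS24 at −1.19 and MRPL12 at −0.61, the last at −0.37 without PHA-767491 replicate II. MRPS24 had a mean log2 level of only −0.03 over the 22 libraries that listed it.

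The lines themselves differed in the level of single members. Under lapatinib MRPL13 and MRPL4 were higher in Hs578T and MRPL28 was higher in SKBR7, beside 7.86% and 4.88% of all 21316 genes higher and lower in Hs578T (limma over 24 libraries). MRPL13, a conserved large subunit protein, was at 7.34, 6.90 and 7.23 in Hs578T and at 5.37, 3.75 and 5.36 in SKBR7. The difference was 2.33 (SE 0.43, adjusted p = 5.15e-04), and the lowest of all 12 Hs578T values, 5.35 in DMSO replicate I, was the only one below the highest SKBR7 value of 5.71. MRPL4, a protein of the exit tunnel wall, was at 6.23, 5.83 and 6.24 against 4.51, 4.08 and 5.07 and differed by 1.55 (SE 0.42, adjusted p = 0.0139). MRPL28 was at 5.81, 5.38 and 5.77 against 6.14, 7.59 and 6.85 and differed by −1.21 (SE 0.39, adjusted p = 0.0424). Its call was lost in most refits without 1 library, with a difference of −0.84 (adjusted p = 0.220) without SKBR7 lapatinib replicate II. The call of MRPL4 was lost without Hs578T lapatinib replicate I or III or without SKBR7 lapatinib replicate II.

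More members passed between the lines without the libraries in doubt and after renewed normalisation. Of 76 members 17 were higher and 36 lower in Hs578T, which is 22.4% and 47.4%, beside 33.7% and 35.8% of 12200 genes, and the differences between these shares were not tested. MRPL54, MRPL13 and MRPL4 stood highest, at 1.84, 1.80 and 1.30, and MRPL24, MRPL44 and MRPL16 lowest, at −1.48, −1.32 and −1.28 (limma adjusted p from 5.85e-11 to 1.10e-07). MRPL24 was at 6.14, 5.70 and 6.03 under lapatinib in Hs578T and at 7.37, 7.79 and 7.55 in SKBR7, and MRPL54 at 5.86, 5.59 and 5.81 against 3.54, 4.78 and 4.20. Neither pair of groups overlapped, although in the 24-library fit neither gene passed (limma adjusted p = 0.0982 and 0.0846). Of all genes, 25.5% lay wholly above and 15.9% wholly below in Hs578T under lapatinib.

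Compared per kilobase of mRNA, a log2 level from which log2 length was subtracted, the members formed a broad range. MRPL51, MRPL33 and MRPL37 stood highest at 7.30, 7.23 and 7.15, and MRPS24, MRPS17 and MRPL42 lowest at 0.55, 1.99 and 2.12. The low place of MRPL42 rested on a reference mRNA of 15557 bases, since its plain level of 6.08 was above the members' median of 5.57. MRPS24 shares 23.2% of its exon bases with a readthrough gene on the same strand, URGCP-MRPS24, and MRPS17 shares 25.0%, and the part of this sharing in their levels was not tested. The order at the top differed between lines, with per-kilobase means in Hs578T of 7.11 for MRPL51, 7.07 for MRPL33 and 7.28 for MRPL37, and in SKBR7 of 7.49, 7.39 and 7.02. These gaps were smaller than the range of any of the 3 genes over the libraries of a line, where plain log2 levels of MRPL51 ran from 5.59 to 7.53 in Hs578T and from 6.95 to 7.56 in SKBR7. In all, 18 of the 77 members share exon bases with another gene on the same strand, and 23 have pseudogenes in the table, 32 symbols in all, and how the counting divided reads between them was not tested.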

How the data were processed

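RNA was prepared as stranded mRNA libraries from the 24 samples and, per the labels, reads were aligned to GRCh38 and counted with featureCounts 1.4.6. The study's methods name STAR as aligner and the submitters' notes name HiSat2. The deposited log2 values were normalised by the authors with TMM in edgeR and then by quantiles, and a gene without a value in a library is blank. Of 36517 lines, 36 repeated an identifier and were left out. A second table with the authors' group means and log2 differences was not used.

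Differences were fitted with limma 3.58.1 in R 4.3.3 on the log2 values as deposited, with group means and a variance trend, over genes listed in at least 3 libraries, and two-sided p-values were adjusted by Benjamini-Hochberg over all genes tested with a threshold of 0.05. No value was filled in. Hs578T co-treatment against lapatinib used its 6 libraries, other comparisons within a line 12, and comparisons between lines 24. The code was tested on simulated data. Sequencing depth is unknown from these values. The members, gene lists and libraries in doubt were chosen with earlier results of these data known. Members were named by size: the 3 largest rises and falls among those that passed, or the 2 highest and 2 lowest listed in all libraries of the comparison where none passed, the 3 highest and 3 lowest per kilobase, the MRPS18 paralogues, MRPL12 and MRPS36, and others were chosen after their values were seen. Gene models came from GENCODE 44 on GRCh38 and promoters from RefSeq GRCh38.p14. Alternatives changed the filter, scaling, variance trend, samples, replicate block and libraries left out, and 3 were added after the data were seen, namely a filter on the 6 libraries, leaving out the libraries in doubt without renewed normalisation, and the respiratory chain list without pseudogenes.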

Additional observations from a re-analysis of the deposited data

How the results depend on the processing

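For members that passed and were named by the rule above, direction held under all alternatives run, but the number passing did not. Changing the variance trend, the filter, the spread or the balanced block leaves a difference of group means as it was. Only centring, renewed normalisation and leaving out libraries could have changed a direction. Members named in other ways were not followed through each of these. In Hs578T co-treatment against lapatinib (31 members passed) the count was 1 without a variance trend, 19 with the replicate block, 0 with all 12 libraries of the line, and 20 to 31 without 1 library, beside 5.03%, 20.9%, 0% and 20.5% to 30.2% of all genes, where 27.8% passed as reported. Of the 18 higher members under the block all 18 were among the 27, and the stricter filter kept 26 of 27 and all 4 lower. No pairing by replicate number was seen, since correlations of deviations ran from −0.452 to 0.594 and only 5 of 24 libraries were closest to their own number. That check included the 6 libraries in doubt, which can set the deviations in their groups, so it cannot exclude pairing. The block moved no other count by more than 1.5 times.

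Without the libraries in doubt and with renewed normalisation, the count rose from 0 to 15 for Hs578T co-treatment against PHA-767491, 25 against DMSO, 17 for SKBR7 co-treatment against lapatinib, 14 against PHA-767491, 17 against DMSO and 2 for SKBR7 PHA-767491 against DMSO, from 3 to 53 between the lines under lapatinib and from 0 to 7 for the line difference. The shares of all genes called in these fits were 29.6%, 43.8%, 34.9%, 35.6%, 39.7%, 3.13%, 69.5% and 20.7%. There Hs578T DMSO and PHA-767491 keep 1 library each, assumed to vary like the other groups. Those fits also kept only genes listed in every library of the line or lines, Hs578T DMSO replicate I aside. With values as deposited the counts were 2, 20, 5 and 4 for Hs578T against PHA-767491 and DMSO and SKBR7 against lapatinib and DMSO, 44 between the lines and 1 for the line difference, beside 8.55%, 19.6%, 8.48%, 11.8%, 41.2% and 3.36% of all genes. At an unadjusted p the counts of the comparisons with none were 1, 18, 3 and 1 in Hs578T and 6, 1, 4 and 2 in SKBR7. SKBR7 co-treatment against lapatinib gave 1 under the stricter filter and 1 when centred, beside 7.66% and 3.53% of all genes. The line comparison gave 14 when centred, 15 with only its own groups and 1 to 13 without 1 library, beside 19.1%, 21.7% and 9.42% to 21.5%, highest for both without Hs578T DMSO replicate I. Leaving out 1 library gave 0 to 25 for Hs578T co-treatment against DMSO, 0 to 15 for lapatinib and 0 to 4 for PHA-767491, beside 0% to 39.7%, 0% to 33.0% and 0% to 22.0%, highest without DMSO replicate III.

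Named members that did not pass changed sign as follows, and the cause was not tested. Against lapatinib in Hs578T, MRPS18A was −0.0093 when centred, −0.011 ranked anew and −0.028 to 0.29 without 1 library. In SKBR7, MRPL12 was 0.11 when centred, 0.75 ranked anew, 0.95 without the doubtful libraries as deposited, and −1.12 to 0.79 without 1 library, MRPS18A −0.63 to 0.28 and MRPS18C −0.076 to 0.56. Against PHA-767491, leaving out 1 library gave −1.03 to 0.11 for MRPL16 in Hs578T and −0.059 to 1.27 for MRPS24 in SKBR7. For Hs578T co-treatment against DMSO, MRPL22 was −1.09 when centred, −0.14 ranked anew, −0.091 as deposited and −0.050 to 0.094 without 1 library, and MRPS26 −0.55 to 0.11. For lapatinib, MRPS28 was −0.048 ranked anew and −0.071 as deposited, MRPL52 0.00092 ranked anew and −0.82 to 0.41 without 1 library, and MRPS36 −0.61 to 0.0062. For PHA-767491, MRPL41 was 0.25 ranked anew and 0.31 as deposited, and MRPL52 0.27, 0.31, and −1.20 to 0.032 without 1 library. For the line difference MRPS36 was 0.18 ranked anew, 0.23 as deposited and −1.61 to 0.36 without 1 library, and MRPL39 −1.19 to 0.032.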
